A study of Mus musculus with 15 samples.

Results

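The genes described here build the mitotic spindle, start and time mitosis, and separate the chromosomes and the daughter cells. A list of 44 such genes was read on 15 single-colour arrays of mouse MC3T3 cells. Of these, 38 had a probe set (a group of oligonucleotides for a transcript) annotated to that gene alone, out of 8251 genes on the array with such a probe set. Where a gene had several, the probe set with the highest mean log2 intensity was used. The signal filter, a mean of at least 22.3 intensity units over all arrays and so not tied to any group, kept 37 members among 5643 tested genes. Cenpe, a kinetochore motor, had a mean of 4.70 units and was not tested. Ccnb1, Cdc25b, Bub1b, Cenpf, Tpx2 and Hmmr had no probe set of their own and are not analysed here. The list was chosen with earlier results of these data known. Its counts beside those of all probe sets are therefore a description, not a test of the list.

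MC3T3 is a line from mouse calvaria, and the cells were clone 1b, so every array stems from 1 clone. The 5 groups had 3 arrays each: control medium at day 0, beta-glycerol phosphate (GP) for 1 day or 3 days, and GP with ascorbic acid (AA) and BMP-2 for 1 day or 3 days. GP is a phosphate source used in osteoblast culture, AA is needed for collagen hydroxylation, and BMP-2 is a growth factor that induces bone. No culture had AA or BMP-2 without the other, so what each did cannot be told apart, nor can GP and a day of culture between day 0 and day 1. The labels number the preparations 1 to 3 in each group, called replicates here. Nothing says that they were separate cultures. A p-value here therefore reflects the spread between these arrays, which may be technical.

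Cells enter mitosis when cyclin-dependent kinase 1, bound to B-type cyclins, is switched on, with Aurora and Polo-like kinases acting beside it. The spindle checkpoint then holds the anaphase-promoting complex in check until the chromosomes are attached, and the central spindle guides cytokinesis. Many of these genes are transcribed late in the cell cycle, through promoters that often carry a cell cycle genes homology region (CHR) near a CCAAT box, and in osteoblast precursors their level is commonly read as a sign of dividing cells. In such bulk samples, a smaller fraction of dividing cells and less RNA per dividing cell cannot be told apart.

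To show these promoter elements beside the data, RefSeq promoters (assembly GRCm38.p6, 250 bases before to 50 after the start, 300 bases in all) were searched on both strands. A promoter was matched for 35 of the 44 listed genes, 29 of them tested members. Ccna2, Cdc25c, Foxm1, Aurkb, Incenp, Kif20a, Tpx2, Stmn1 and Smc4 were not matched. The 4 sequences below belong to the members with the smallest p at day 3 that hold a CHR spelling in the window printed, from 130 bases before to 30 after the start. Each is written 5′ to 3′ on the gene's strand, with TTTGAA and CCAAT in capitals, or TTCAAA and ATTGG where they lie on the opposite strand.
Kif2c, chr4:117178743-117178902, minus strand: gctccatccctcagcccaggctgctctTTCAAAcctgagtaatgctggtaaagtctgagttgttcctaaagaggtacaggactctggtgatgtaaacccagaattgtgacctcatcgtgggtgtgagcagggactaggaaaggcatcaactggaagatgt
Cdc20, chr4:118437314-118437473, minus strand: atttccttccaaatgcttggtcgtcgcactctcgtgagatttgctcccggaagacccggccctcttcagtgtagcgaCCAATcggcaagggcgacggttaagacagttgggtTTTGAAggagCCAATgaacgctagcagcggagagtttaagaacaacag
Cdk1, chr10:69352883-69353042, minus strand: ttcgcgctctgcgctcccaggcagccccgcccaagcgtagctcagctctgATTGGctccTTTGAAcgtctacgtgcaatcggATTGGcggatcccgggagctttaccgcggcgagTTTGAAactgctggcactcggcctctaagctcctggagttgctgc
Ttk, chr9:83834559-83834718, plus strand: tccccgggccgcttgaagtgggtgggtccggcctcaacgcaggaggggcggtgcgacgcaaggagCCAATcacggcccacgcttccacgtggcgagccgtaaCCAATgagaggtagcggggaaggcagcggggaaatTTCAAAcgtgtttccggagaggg
The promoters of Cdc20, Cdk1 and Ttk each held CCAAT boxes as well as a CHR spelling, and the Kif2c stretch held a CHR spelling alone.

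Among the 29 tested members with a promoter, 24 (82.8%) held a CHR spelling, TTTGAA or TTCGAA, against 21.7% of the 27025 genes in the table. TTTGAA stood in 23 of them (79.3%, against 20.2%) and TTCGAA in 2 (6.9%, against 1.8%). CCAAT was found in 25 (86.2%, against 41.1%). Both a CHR spelling and CCAAT were present in 23 (79.3%, against 8.61%). Of 37 DNA replication genes with a promoter, 21.6% held a CHR spelling and 56.8% held CCAAT. The E2F spellings TTTGGCGC and TTTCGCGC were in 0 and 1 of the 29 members, against 13.5% and 16.2% of the replication genes and 0.585% and 0.374% of all genes. None of these spellings contains another. These are matches of letters in a fixed window, not measured binding. The median day 3 log2 difference, described below, was 0.94 for the 24 members with a CHR spelling and 1.00 for the 5 without one (Birc5, Cks2, Mad2l1, Nek2 and Tacc3).

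The quality of the arrays bears on the levels. The signals were on a common scale when deposited. The replicate 3 arrays stood apart, with 12.1% to 14.3% of values at the floor of 2.8 units against a smaller share on every array of replicates 1 and 2, and no tested member's value lay at that floor on any array. The actin probe sets, a check on RNA quality, gave a 3′ over 5′ ratio of 2.11 on GP day 3 replicate 3 and of 1.00 to 1.34 elsewhere. Of the osteoblast lineage markers, 5 of 6 with a probe set passed the filter (Col1a1, Col1a2, Alpl, Cdh11 and Postn), and their summed intensity was 17617 to 30432 on all arrays. Of the markers of other cells, 1 of 6 macrophage (Csf1r), 0 of 5 endothelial, 1 of 4 epithelial (Cdh1), 1 of 3 adipocyte (Lep) and 3 of 5 skeletal muscle markers (Myod1, Myog and Ckm) passed. The summed macrophage markers were 39.8 to 84.1 units in medium, 88.2 to 106 in GP at day 1, 55.6 to 74.7 in GP/AA/BMP-2 at day 1, 68.0 to 109 in GP at day 3 and 67.2 to 88.9 in GP/AA/BMP-2 at day 3. In the same order the adipocyte markers were 85.3 to 136, 156 to 178, 160 to 215, 142 to 328 and 164 to 265. Over all groups the skeletal muscle markers spanned 110 to 176, the endothelial markers 31.9 to 96.1 and the epithelial markers 85.0 to 207. Whether these markers play a part in the differences below was not tested.

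The average level of the members was highest in the day 1 groups and lowest in GP at day 3. Their mean log2 intensity, relative to the mean of the medium arrays, was -0.15, 0.06 and 0.08 on medium replicates 1 to 3. It was 1.15, 0.88 and 1.05 in GP at day 1 and 1.01, 1.01 and 1.49 in GP/AA/BMP-2 at day 1. By day 3 it was -0.33, -0.43 and 0.02 in GP, and 0.57, 0.56 and 0.99 in GP/AA/BMP-2. Both day 1 groups thus lay above every medium array, GP at day 3 lay within or below the range of medium, and GP/AA/BMP-2 at day 3 lay between medium and day 1 except that its replicate 3 array reached the level of the day 1 arrays. Within every group but GP at day 1 the replicate 3 array was the highest, though in medium only at 0.08 against 0.06 for replicate 2. On the replicate 3 arrays 29 of the 37 members averaged above their group mean.

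**Figure D1:**
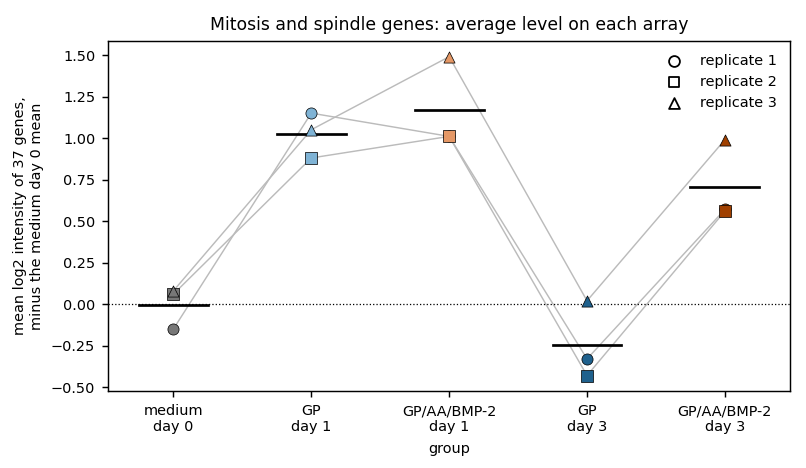
Mean log2 intensity of the 37 tested members on each array (y axis, relative to the medium day 0 mean) by group (x axis). Each symbol is 1 array, its shape gives the replicate number, grey lines join equal numbers and bars are group means. Day 1 arrays lie at 0.88 to 1.49, GP day 3 arrays at -0.43 to 0.02 and GP/AA/BMP-2 day 3 arrays at 0.56 to 0.99.

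Gene by gene the order was much the same. GP/AA/BMP-2 at day 1 had the highest group mean for 29 of 37 members and GP at day 1 for the other 8. GP at day 3 was lowest for 36, and medium was lowest for 1. For 33 members the means ran, from low to high, from GP at day 3 through medium and GP/AA/BMP-2 at day 3 to both day 1 groups. Neighbours in that order did not always differ beyond their spread, as the comparisons below show, since neither GP day 3 and medium nor the day 1 groups were separated for any member by the test.

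**Figure D2:**
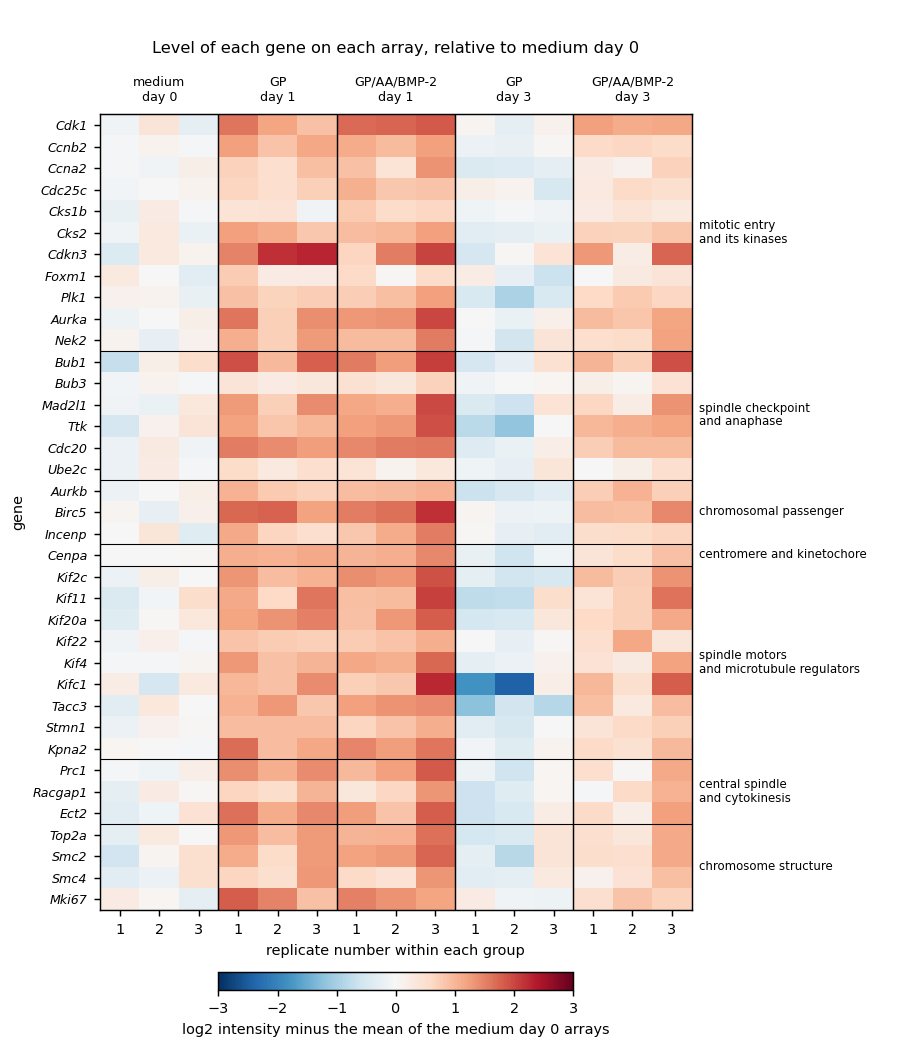
Level of each tested member (rows, grouped by role) on each of the 15 arrays (columns, by group and replicate number), as log2 intensity minus the mean of the medium day 0 arrays, from blue (lower) to red (higher). Day 1 columns are red in nearly every row, GP day 3 columns are pale or blue, and Kifc1 on GP day 3 replicates 1 and 2 is the darkest blue.

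The main comparison asked what AA and BMP-2 changed beside GP at day 3. All 37 members were higher with AA and BMP-2. Of these, 17 rose past the threshold (limma, Benjamini-Hochberg adjusted p under 0.05 over 7453 probe sets), where 2.03% of all tested probe sets rose. The tested probe sets include several for some genes, while each member is read from the brightest of its gene, so the shares are not fully alike. The replicate numbers pair the arrays, and with the replicate number as a block 32 of 37 passed, against 6.84% of all probe sets. The 3 arrays of each group did not overlap for 27 members, against 10.5% of all probe sets. The median member was 0.93 higher on the log2 scale, a fold of 1.90, with a range from 0.22 for Ube2c to 2.45 for Kifc1, and the median of all probe sets was 0.00. The members' median was 0.81, 0.94 and 0.98 in replicates 1, 2 and 3, and 36 members were higher in all 3, against 23.5% of all probe sets. The count was 10 without the GP day 3 replicate 2 array, 21 without the GP day 3 replicate 3 array or without replicate 3 altogether, and 0 without replicate 1 or replicate 2. With the block, leaving out a replicate number gave 26, 20 and 26. The members' median was 0.89, 0.88 and 0.91 without replicates 1, 2 and 3, from fits with fewer arrays.

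**Figure D3:**
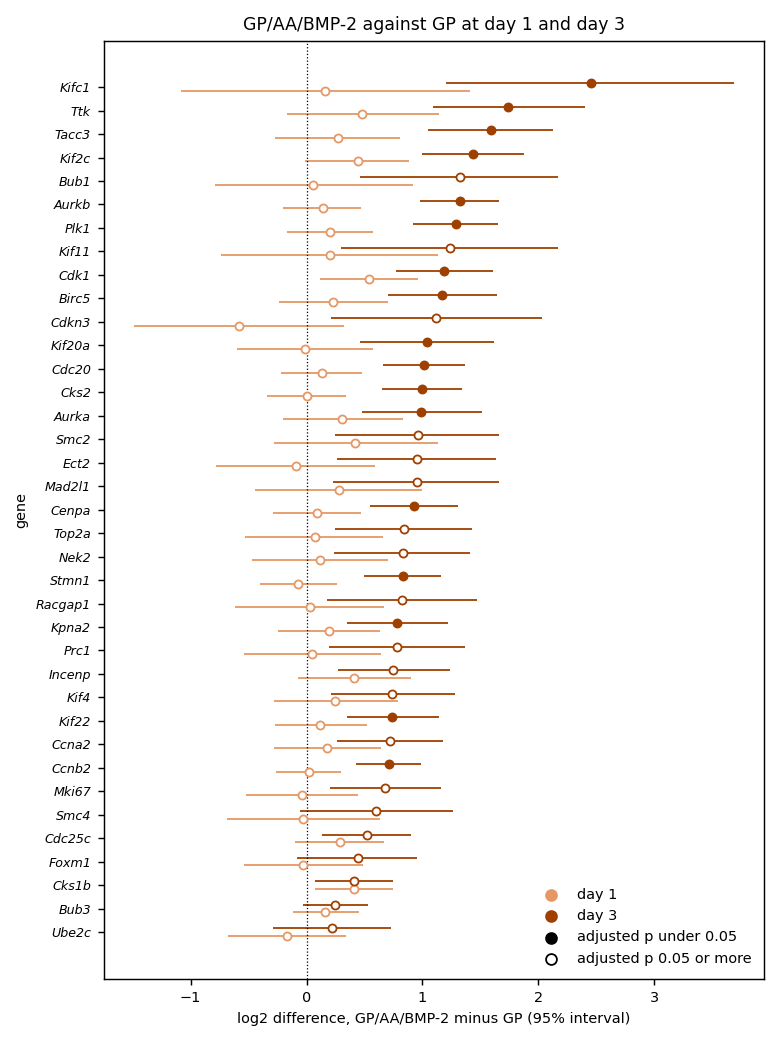
Log2 difference of GP/AA/BMP-2 minus GP (x axis, with 95% intervals from the fit without the block) for each tested member (y axis), at day 1 (light) and day 3 (dark). Filled points have an adjusted p under 0.05 in that fit. At day 3 all 37 points lie right of 0 and 17 are filled, and at day 1 none is filled.

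Mitotic entry and its kinases held 11 tested members, of which 5 rose at day 3 and 8 passed with the block, with a median difference of 0.83. Plk1, the Polo-like kinase that acts at mitotic entry, measured 184, 132 and 185 units in GP and 384, 433 and 392 in GP/AA/BMP-2. Every treated array was thus above every GP array. The log2 difference was 1.29 ± 0.17 (SE), a fold of 2.44 (adjusted p = 0.00128, and 3.8e-04 with the block). Cdk1, the kinase that drives mitosis, measured 435, 340 and 445 in GP and 962, 884 and 918 in GP/AA/BMP-2. Its difference was 1.19 ± 0.20 (adjusted p = 0.00459, and 0.00121 with the block). The same gene stood at 383, 538 and 334 in medium and at 1243, 933 and 754 in GP at day 1, so GP cultures at day 3 were back in the range of medium. Cks2, a small subunit that binds the kinase, measured 258, 270 and 284 in GP and 524, 517 and 580 in GP/AA/BMP-2, a difference of 1.00 ± 0.16 (adjusted p = 0.00392, and 9.7e-04 with the block).

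The remaining entry genes ran from strong to weak. Ccnb2, a B-type cyclin, rose by 0.71 ± 0.13 (adjusted p = 0.00861) and Aurka, the centrosomal Aurora kinase, by 0.99 ± 0.24 (adjusted p = 0.0327). Ccna2, cyclin A, Nek2, a centrosome kinase, and Cdkn3, a phosphatase of cyclin-dependent kinases, differed by 0.72, 0.83 and 1.12, with adjusted p = 0.0784, 0.114 and 0.170, and passed with the block (0.00355, 0.00389 and 0.0342). Cdc25c, a phosphatase that activates Cdk1, Cks1b, the paralog of Cks2, and Foxm1, a transcription factor of mitotic genes, differed by 0.52, 0.41 and 0.44 and passed neither fit. Foxm1 depended on the probe set. The one used, whose suffix marks probes shared with similar sequences, differed by 0.44 (adjusted p = 0.399), and a dimmer Foxm1 probe set differed by 2.27 (adjusted p = 0.00456). A second Cdc25c probe set had a difference of 1.01 (adjusted p = 0.0569 without the block, 0.0200 with it), and the other Plk1 probe sets differed by 1.42 and 1.06 (adjusted p = 0.130 and 0.0636, and 0.0438 and 0.00710 with the block).

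In the spindle checkpoint and anaphase group, 2 of 6 tested members rose and 4 passed with the block, with a median difference of 0.98. Ttk, the Mps1 kinase of the checkpoint, measured 29.8, 23.0 and 52.5 units in GP and 104, 110 and 118 in GP/AA/BMP-2, where the treated arrays were close together and the GP arrays spread. The difference was 1.74 ± 0.31, a fold of 3.35 (adjusted p = 0.00682, and 6.0e-04 with the block). Cdc20, the activator of the anaphase-promoting complex, measured 297, 343 and 446 in GP and 652, 758 and 757 in GP/AA/BMP-2, a difference of 1.01 ± 0.16 (adjusted p = 0.00422, and 6.8e-04 with the block). Bub1, a checkpoint kinase at the kinetochore, measured 31.2, 37.3 and 60.3 in GP and 89.4, 72.4 and 168 in GP/AA/BMP-2. Its groups did not overlap, but replicate 3 was high in both, and the difference of 1.32 ± 0.40 passed with the block only (adjusted p = 0.0841, and 0.00664 with the block). Mad2l1, which inhibits Cdc20, had a difference of 0.95 and passed only with the block as well (adjusted p = 0.141 without it, 0.00106 with it). Bub3, the partner of Bub1, and Ube2c, the ubiquitin-conjugating enzyme of the anaphase-promoting complex, differed by 0.25 and 0.22 and passed neither fit. Their 95% intervals, from the fit without the block, include 0. With the block the unadjusted limma p was 0.0372 for Bub3 and 0.353 for Ube2c.

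The chromosomal passenger complex corrects wrong attachments of chromosomes to the spindle, and 2 of its 3 tested members rose, with 3 of 3 past the threshold under the block. Aurkb, its kinase, measured 91.9, 104 and 115 units in GP and 241, 299 and 238 in GP/AA/BMP-2. The difference of 1.32 ± 0.16, a fold of 2.50, had the smallest p of all members (adjusted p = 7.1e-04, and 1.2e-04 with the block). Aurkb had stood at 128, 145 and 162 in medium, and at 295, 250 and 232 in GP at day 1, so each GP array at day 3 lay below each medium array. Birc5 (survivin), a subunit of the complex, measured 138, 115 and 116 in GP and 246, 242 and 352 in GP/AA/BMP-2, a difference of 1.17 ± 0.22 (adjusted p = 0.00949, and 0.00270 with the block). Incenp, its scaffold, measured 167, 138 and 130 in GP and 235, 238 and 255 in GP/AA/BMP-2. The difference of 0.75 ± 0.23 passed with the block only (adjusted p = 0.0825, and 0.0383 with the block). A dimmer Incenp probe set differed by 0.78 and passed neither fit (adjusted p = 0.334, and 0.0960 with the block).

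Cenpa, the histone variant that marks centromeres, was the only tested member of the centromere group. It measured 85.4, 65.8 and 91.8 units in GP and 132, 147 and 184 in GP/AA/BMP-2 at day 3, a difference of 0.93 ± 0.18 (adjusted p = 0.0101, and 0.00108 with the block). Its medium arrays were almost equal, at 99.8, 98.8 and 102, as were those of GP at day 1, at 212, 207 and 221.

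Among spindle motors and microtubule regulators, 7 of 9 tested members rose and 9 of 9 passed with the block, with a median difference of 1.04. Kif2c, a kinesin that takes microtubules apart at centromeres, measured 67.2, 54.9 and 57.7 units in GP and 156, 134 and 204 in GP/AA/BMP-2. The difference was 1.44 ± 0.21, a fold of 2.71 (adjusted p = 0.00184, and 4.1e-04 with the block). Tacc3, which stabilises spindle microtubules, measured 19.3, 31.1 and 25.2 in GP and 85.0, 56.0 and 86.2 in GP/AA/BMP-2, a difference of 1.59 ± 0.25 (adjusted p = 0.00388, and 0.00114 with the block). Stmn1 (stathmin), which binds free tubulin, measured 718, 643 and 911 in GP and 1187, 1344 and 1469 in GP/AA/BMP-2, a difference of 0.83 ± 0.15 (adjusted p = 0.00917, and 6.1e-04 with the block). All 3 genes kept the groups apart on every array.

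Kifc1, a minus-end kinesin that gathers spindle poles, had the largest difference of the members and also the widest spread. It measured 39.5, 25.9 and 160 units in GP and 277, 194 and 495 in GP/AA/BMP-2 at day 3, so the replicate 3 array was the highest of both groups. Within replicates 1, 2 and 3 the log2 differences were 2.81, 2.90 and 1.63. The fit gave 2.45 ± 0.58 (adjusted p = 0.0319, and 4.8e-04 with the block), and the probe set's suffix marks probes that may read related sequences. Kif20a and Kif22, both mitotic kinesins, rose by 1.04 ± 0.27 and 0.74 ± 0.18, and Kpna2, an importin that binds spindle factors, by 0.78 ± 0.20 (adjusted p = 0.0474, 0.0388 and 0.0469). Kif11, the kinesin that pushes spindle poles apart, and Kif4, a chromosome-bound kinesin, differed by 1.24 and 0.74 and passed with the block only (adjusted p = 0.139 and 0.119, and 5.8e-04 and 0.0203 with the block).

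No member of the central spindle and cytokinesis group (0 of 3) or of the chromosome structure group (0 of 4) passed the limma test without the block, and every one of these 7 genes passed with it. They had medians of 0.82 and 0.76. At an unadjusted p under 0.05, 33 of all 37 members were higher, against 8.59% of all probe sets. Ect2, the exchange factor that activates RhoA for the cleavage furrow, measured 96.4, 108 and 173 units in GP and 218, 169 and 348 in GP/AA/BMP-2. The lowest treated array lay just under the highest GP array, yet within each replicate number the treated array was higher. The difference was 0.95 ± 0.32 (adjusted p = 0.121, and 0.00506 with the block). Prc1, which bundles central spindle microtubules, measured 185, 136 and 214 in GP and 289, 209 and 453 in GP/AA/BMP-2, a difference of 0.78 ± 0.28 (adjusted p = 0.141, and 0.00844 with the block). Racgap1, a subunit of centralspindlin, measured 114, 137 and 183 in GP and 168, 262 and 359 in GP/AA/BMP-2, a difference of 0.82 ± 0.30 (adjusted p = 0.154, and 0.00820 with the block). In each of these genes the replicate 3 array was the highest of its group.

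Top2a, the topoisomerase that untangles sister chromatids, measured 105, 112 and 198 units in GP and 214, 191 and 329 in GP/AA/BMP-2, a difference of 0.84 ± 0.28 (adjusted p = 0.112, and 0.0140 with the block). Smc2, a core subunit of condensin, measured 135, 92.4 and 216 in GP and 237, 233 and 358 in GP/AA/BMP-2, a difference of 0.96 ± 0.33 (adjusted p = 0.128, and 0.00669 with the block). Mki67 (Ki-67), which coats mitotic chromosomes and is the usual marker of dividing cells, measured 181, 143 and 139 in GP and 215, 279 and 246 in GP/AA/BMP-2. Its groups did not overlap, and the difference was 0.68 ± 0.22 (adjusted p = 0.114, and 0.0180 with the block). A dimmer Mki67 probe set had the opposite sign, at -0.13. Smc4, the partner of Smc2, had a difference of 0.60 (adjusted p = 0.355 without the block, 0.00355 with it).

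**Figure D4:**
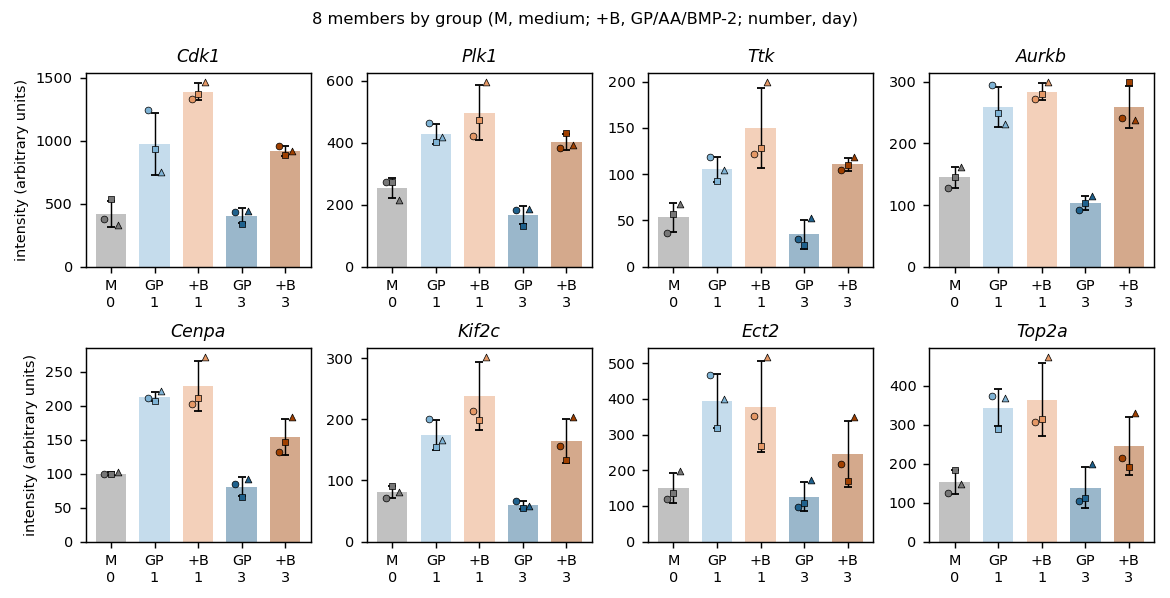
Intensity (y axis, linear, arbitrary units) of 8 members in each group (x axis: M, medium; GP; +B, GP/AA/BMP-2; with the day). Bars are means of 3 arrays, error bars are SD, and symbols are arrays shaped by replicate number. Each gene is high in both day 1 groups, low in GP at day 3 (Cdk1: 340 to 445) and higher in GP/AA/BMP-2 at day 3 (Cdk1: 884 to 962).

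At day 1, AA and BMP-2 did not separate the members from GP alone in either fit. By limma, 0 of 37 members passed in either direction, with or without the block, where 0.295% of all probe sets rose, or 2.07% with the block. At an unadjusted p under 0.05 in the fit without the block, 2 were higher (Cdk1 and Cks1b), against 5.33% of all probe sets. The arrays did not overlap for 4 members (Cdk1, Cdc25c, Cks1b and Ttk), against 8.44% of all probe sets. The median difference was 0.14, from -0.58 for Cdkn3 to 0.54 for Cdk1, and 29 of 37 were higher, against 49.4% of all probe sets. Without the GP/AA/BMP-2 day 1 replicate 3 array the median was 0.00 and 18 were higher, and without replicate 3 altogether they were 0.02 and 19. The median differed by replicate number, at -0.15, 0.12 and 0.38 for replicates 1 to 3. For Cdk1 the arrays measured 1335, 1376 and 1464 units with AA and BMP-2 against 1243, 933 and 754 without, a difference of 0.54 ± 0.20 (adjusted p = 0.279). The 95% interval, from the fit without the block, included 0 for 35 members. Its upper bound was under 1, a doubling, for 32, so for these a day 1 difference as large as a doubling lay outside the interval.

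The difference between the day 3 and day 1 effects (the interaction) was tested directly. By limma 0 of 37 members passed, with or without the block, and so did 0% of all probe sets, or 0% with the block. The effect was larger at day 3 for 36 members, against 50.7% of all probe sets. The members' median was 0.73, with a range from 0.00 for Cks1b to 2.28 for Kifc1. At an unadjusted p under 0.05 in the fit without the block there were 19 members, against 1.99% of all probe sets. In all 3 replicates the day 3 effect was the larger for 32 members, against 17.1% of all probe sets. Aurkb had the smallest p, with an interaction of 1.18 ± 0.22 (adjusted p = 0.634, and 0.0745 with the block), and Plk1 followed with 1.09 ± 0.24 (adjusted p = 0.634, and 0.113 with the block).

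The time comparisons set these levels against the earlier groups, and those that name the same group share its arrays. From medium at day 0 to GP at day 1, 11 of 37 members rose, against 0.242% of all probe sets, and 25 with the block, against 0.711%. Only 18 probe sets of the whole array rose in this comparison, and the members made up 61.1% of them. At day 3 the members made up less, 11.3% of the probe sets higher with AA and BMP-2 than in GP. They were 9.52% of those higher at day 3 with AA and BMP-2 than in medium. Since the list was chosen with earlier results of these data known, these shares are only a description. The arrays of GP day 1 and medium did not overlap for 34 members, against 5.62%. The median difference was 1.07, from 0.24 for Cks1b to 1.99 for Cdkn3. Leaving out any 1 of the 6 arrays left 2 to 6 calls, and leaving out replicate 1, 2 or 3 left 0, 0 and 10 (0, 3 and 14 with the block). Cdc20 had the smallest p. It measured 349, 470 and 365 units in medium and 1137, 1048 and 929 in GP at day 1, a difference of 1.40 ± 0.16 (adjusted p = 0.00240, and 4.8e-04 with the block). Birc5 went from 138, 110 and 144 to 429, 446 and 299, a difference of 1.57 ± 0.22 (adjusted p = 0.00957), and Mki67 from 181, 160 and 125 to 540, 430 and 283, a difference of 1.39 ± 0.22 (adjusted p = 0.0195). Ccnb2 and Cdc20 were called in every one of those 6 fits. The summed macrophage and adipocyte markers were also higher in GP at day 1 than on any medium array. Csf1r, the macrophage marker that passed the filter, differed by 1.47 ± 0.45 (adjusted p = 0.555), and the part of these markers in the members' rise was not tested.

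From GP at day 1 to GP at day 3 the members fell. Here 22 of 37 passed, against 0.671% of all probe sets, and 31 with the block, against 1.41%. The members were 44.0% of the 50 probe sets that fell, again only a description of the chosen list. The arrays did not overlap for 35, against 6.02%. The median difference was -1.32, a fold of 2.50 down, from -2.45 for Kifc1 to -0.33 for Cks1b. Ccnb2 measured 1388, 1075 and 1324 units at day 1 and 523, 510 and 608 at day 3, and fell by 1.20 ± 0.13 on the log2 scale (adjusted p = 1.0e-03, and 1.4e-04 with the block). Tacc3 measured 94.0, 112 and 80.1 at day 1 and 19.3, 31.1 and 25.2 at day 3, and fell by 1.93 ± 0.25 (adjusted p = 0.00216). Both genes had no overlap between days. The count was 11 without GP replicate 1 at day 1 or GP replicate 2 at day 3, and 13 without GP replicate 3 at day 1 or GP replicate 1 at day 3. It was 0, 0 and 27 without replicates 1, 2 and 3, or 16, 21 and 32 with the block.

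With AA and BMP-2 the members were also lower at day 3 than at day 1, by a median of 0.51 on the log2 scale. All 37 were lower, against 51.5% of all probe sets. By limma 0 passed, against 0.0537% of all probe sets, and 15 had an unadjusted p under 0.05, against 3.89%. With the block 9 passed (Ccnb2, Ccna2, Mad2l1, Cdc20, Cenpa, Kif20a, Kpna2, Prc1 and Mki67), against 1.81%. Their adjusted limma p ran from 0.0165 for Kpna2 to 0.0487 for Ccna2. The fit with the block was not repeated without arrays for this comparison. The arrays did not overlap for 15, against 5.72%. Prc1 had the largest difference, -0.79 ± 0.28 (adjusted p = 0.367, and 0.0201 with the block), from 404, 478 and 730 units to 289, 209 and 453. Aurkb stayed near its day 1 level, with 272, 281 and 299 at day 1 and 241, 299 and 238 at day 3, and its 95% interval ran from -0.47 to 0.20.

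Set against medium at day 0, GP/AA/BMP-2 at day 3 was higher for 8 of 37 members (Cdk1, Ccnb2, Cks2, Aurka, Cdc20, Aurkb, Birc5 and Kif2c), against 1.13% of all probe sets, and for 26 with the block, against 5.65%. The arrays did not overlap for 24, against 10.6%, and the median difference was 0.67. The count was 1 to 5 without any 1 of the 6 arrays, where Cdk1 alone was called each time, and 0, 0 and 6 without replicates 1, 2 and 3. With the block it was 9, 11 and 14 without those numbers, and 16 to 24 without single arrays, where it moved by over 1.5 times without the medium replicate 1 or replicate 3 array (16 each) or the GP/AA/BMP-2 replicate 3 array (17). GP alone at day 3 did not differ from medium by limma for any member (0 of 37, against 0% of all probe sets), nor with the block (0, against 0.0134%). At an unadjusted p under 0.05 in the fit without the block there were 4 members lower, against 1.99% of all probe sets. The median difference was -0.19, and 36 members were lower (22 without replicate 2), against 49.8% of all probe sets. The arrays did not overlap for 6 members (Ccna2, Plk1, Aurkb, Cenpa, Kif2c and Tacc3), against 3.43%. Plk1 measured 275, 272 and 217 in medium and 184, 132 and 185 in GP at day 3, a difference of -0.62 ± 0.17 (adjusted p = 0.923), and Tacc3 differed by -0.88 ± 0.25 (adjusted p = 0.969).

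**Figure D5:**
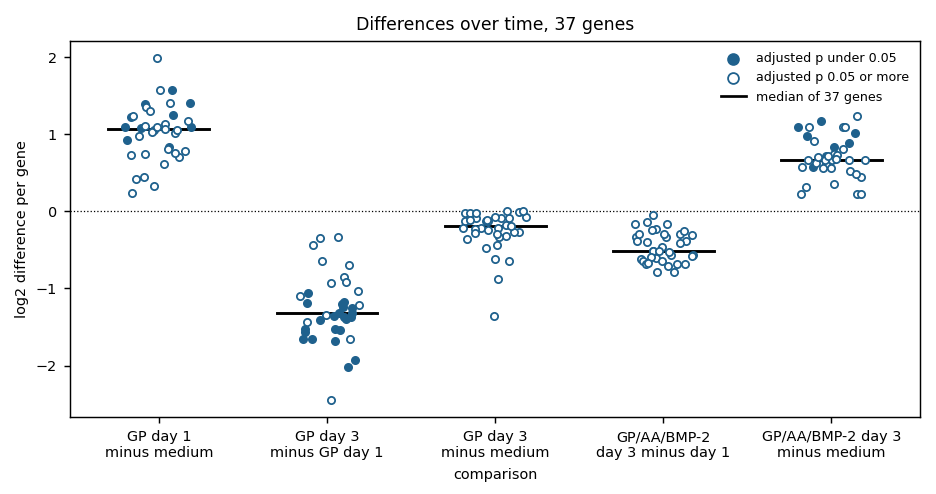
Log2 difference of each tested member (points) in 5 comparisons over time (x axis), with the median of the 37 members as a bar. Filled points have an adjusted p under 0.05 in the fit without the block. Medians are 1.07 for GP day 1 minus medium, -1.32 for GP day 3 minus GP day 1, -0.19 for GP day 3 minus medium, -0.51 for GP/AA/BMP-2 day 3 minus day 1 and 0.67 for GP/AA/BMP-2 day 3 minus medium.

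Across the members, the size of the day 1 rise in GP over medium went with the size of the day 3 difference between GP/AA/BMP-2 and GP, which share no arrays. Pearson's r was 0.45 and Spearman's rho 0.50 over 37 genes, against r = 0.12 over the 7453 probe sets. The genes were read on the same arrays and are not independent replicates. Birc5 and Cdk1 were high in both, at 1.57 and 1.22 for the day 1 rise and 1.17 and 1.19 for the day 3 difference, and Cks1b, Bub3 and Ube2c were low in both, at 0.24, 0.33 and 0.45 and at 0.41, 0.25 and 0.22. The Ube2c probe set was dim, with a mean of 47.7 units. Other members departed from this relation. Kifc1 and Ttk had the largest day 3 differences, 2.45 and 1.74, with day 1 rises of 1.10 and 1.01 near the median of 1.07. Mki67 and Prc1 rose by 1.39 and 1.30 at day 1, but differed by only 0.68 and 0.78 at day 3, under the median of 0.93.

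Other genes of the cell cycle were read from lists. At day 3 with AA and BMP-2, 2.03% of all probe sets rose, or 6.84% with the block. Of 65 further mitosis genes, 38 were tested, and 7 rose in that comparison (10 with the block), with a median difference of 0.35. Those with the smallest p were Ckap2, a spindle-associated protein (0.88 ± 0.19, adjusted p = 0.0223), Cdca8 (borealin), the remaining chromosomal passenger (0.78 ± 0.18, adjusted p = 0.0291), and Dlgap5, which stabilises kinetochore microtubules (1.18 ± 0.28, adjusted p = 0.0325). From medium to GP at day 1, 1 of the 38 genes rose (5 with the block), against 0.242% of all probe sets (0.711%), with a median of 0.17. From GP day 1 to day 3, 6 fell (10 with the block), against 0.671% (1.41%), with a median of -0.28. This list includes tubulins, cohesins and other genes that non-dividing cells also use.

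Of 44 genes of DNA replication and S phase, 37 were tested, with a median of 0.68 at day 3 with AA and BMP-2. Of these, 10 rose (21 with the block), against 2.03% of all probe sets (6.84%). Rfc5, a subunit of the clamp loader, differed by 1.10 ± 0.19 (adjusted p = 0.00709), Cdt1, a licensing factor, by 0.97 ± 0.18 (adjusted p = 0.00933), and Mcm4, a subunit of the replicative helicase, by 1.21 ± 0.25 (adjusted p = 0.0157). From medium to GP at day 1 the replication genes had a median of 0.37 where the mitosis and spindle genes had 1.07. By limma 0 of 37 passed, with or without the block, where 0.242% of all probe sets rose, or 0.711% with it. At day 1, AA and BMP-2 gave the replication genes a median of 0.36 where the mitosis and spindle genes had 0.14. Of the replication genes 0 passed, or 5 with the block, where 0.295% of all probe sets rose, or 2.07% with the block. From GP day 1 to day 3 the replication genes had a median of -0.47 where the mitosis and spindle genes had -1.32. Of the replication genes 1 fell (4 with the block), against 0.671% of all probe sets (1.41%). The difference between the lists was not tested. Of 21 G1 cyclins, inhibitors of cyclin-dependent kinases and pocket proteins, 14 were tested, with a median of 0.14 at day 3, and 1 rose, Cdkn2d, an inhibitor of the G1 kinases (0.72 ± 0.17, adjusted p = 0.0319). With the block 3 of the 14 rose and 1 fell, where 510 and 521 of the 7453 probe sets did.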

How the data were processed

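Each deposited value was a linear intensity for 1 probe set, already scaled so that all arrays had 1 trimmed mean, as the values show. The software is not given in the sources used here. Detection calls did not enter. The number of arrays limits the precision. The 66 control probe sets were left out, values under 2.8 (the 10th percentile) were set to 2.8, log2 was taken, and probe sets with a mean under 22.3 (the 40th percentile) were dropped, which left 7453 of 12422.

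Gene names came from the platform annotation, and all members kept their symbol in RefSeq. The used probe sets of Kifc1, Plk1, Kif20a, Kif22, Ube2c, Cdc25c and Foxm1 carry suffixes for shared sequences or relaxed design, so they may read another transcript.

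All 15 arrays entered a single fit with limma 3.58.1 in R 4.3.3 (lmFit, eBayes with a mean trend, 10 residual degrees of freedom, 8 with the replicate block). The fit without the block was tried on simulated arrays with independent noise, and the fit with the block was not. P-values were adjusted by Benjamini-Hochberg over all tested probe sets and called at 0.05, for 8 contrasts. Errors are standard errors. Equal replicate numbers deviated together from their group means (correlations of 0.26 to 0.51, 0.19 to 0.37 and 0.47 to 0.70 for replicates 1, 2 and 3, over 10 pairs each), so they pair the arrays. No arrays of a group were duplicates (highest correlation 0.9600).

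The members and lists were chosen with earlier results of these data known. Arrays were described one by one for the 3 members of smallest day 3 p in each of 7 roles. Kifc1 at day 3 and the genes given for the time comparisons were chosen after their values were seen. Promoters were RefSeq's (GRCm38.p6). Alternatives changed the floor, filter, normalization, trend, probe-set rule, array weights, arrays fitted, replicate block and each array or replicate number. The fits with the block that leave out arrays were added after seeing the data.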

Additional observations from a re-analysis of the deposited data

How the results depend on the processing

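No member called in any comparison changed sign under an alternative. Members not called that changed sign under at least 1 alternative numbered 20 of 37 for GP/AA/BMP-2 against GP at day 1, 18 for GP day 3 against medium, 6 for GP/AA/BMP-2 day 3 against day 1, 3 for the interaction and 1 for GP/AA/BMP-2 day 3 against medium. That 1 was Foxm1, at -0.02 to 0.48 without 1 of the replicate numbers. The interaction of Cks1b was 0.05 with array weights and -0.17 to 0.17 without an array or a replicate number.

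With the replicate block as a term the counts of members called were 32 (17 without it) for GP/AA/BMP-2 against GP at day 3, 25 (11) for GP day 1 against medium, 9 (0) for GP/AA/BMP-2 day 3 against day 1, and 26 (8) for GP/AA/BMP-2 day 3 against medium. Fitting only the groups compared gave 5, 0, 10 (GP day 3 against day 1, where the main count was 22) and 1 (GP/AA/BMP-2 day 3 against medium), from fits with fewer arrays. Array weights gave 29 for the day 3 comparison, 20 for GP day 1 against medium and 1 for GP/AA/BMP-2 day 3 against day 1. Other floors, filters, normalizations and probe-set rules kept the counts within 1.5 times.

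Leaving out an array or a replicate number gave 0 to 21 for the day 3 comparison, 0 to 10 for GP day 1 against medium, 0 to 27 for GP day 3 against day 1, 0 to 6 for GP/AA/BMP-2 day 3 against medium and 0 to 1 for GP day 3 against medium. With the block the ranges were 20 to 31, 0 to 24, 16 to 32 and 9 to 24 for the first 4 of these. Fits without a replicate number use fewer arrays. In the same 4 comparisons their median member difference was 0.88 to 0.91, 0.91 to 1.16, -1.48 to -1.16 and 0.58 to 0.78. Calls kept in all 6 fits without a single array were 10 of 17 at day 3 (26 of 32 with the block), 2 of 11 for GP day 1 against medium (15 of 25), 11 of 22 for GP day 3 against day 1 (29 of 31) and 1 of 8 for GP/AA/BMP-2 day 3 against medium (13 of 26). The counts for GP/AA/BMP-2 against GP at day 1 and for the interaction were 0 under every alternative run.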
